A study of Mus musculus with 19 samples.

Results

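5-hydroxymethylcytosine (5-hmC) was described here over 5 genes through which thyroid hormone and the corticoid hormones act on the cell: Thra and Thrb (the thyroid hormone receptors alpha and beta), Nr3c1 (the glucocorticoid receptor), Nr3c2 (the mineralocorticoid receptor) and Dio2 (the deiodinase that activates thyroid hormone). The members were chosen by name, with earlier results of these data known. Every peak that overlapped a gene's span, from its outermost annotated start to its outermost annotated end, or the 5 kb before the start, was taken, and the measure was the percent of that stretch covered by peaks. The 5 genes were set beside 21000 protein-coding genes measured in the same way, of which 13551 were tested because they spanned at least 5 kb and had a mean of at least 1% covered over the 8 lists, and all 5 members passed. Peaks touching the members numbered between 49 and 90 a list, and joining those that shared bases over the lists gave 214 regions.

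The study profiled 5-hmC by hydroxymethylated DNA immunoprecipitation and sequencing (hMeDIP-seq) in cardiomyocytes (CMCs) isolated from male mice at 4 points, with 2 replicate samples each. The methods name the strain, C57BL/6J, for the operated mice. E14.5 CMCs came from embryonic ventricles, neonatal CMCs from ventricles of pups aged 1 to 2 days, adult CMCs from the left ventricle of animals aged 2 months, and TAC CMCs from adult mice examined 1 week after transverse aortic constriction, a surgical narrowing of the aorta that overloads the left ventricle with pressure. TAC was compared with adult CMCs; the methods also describe sham-operated mice, but no label names a sham sample or says whether the adult mice were operated, so constriction and surgery cannot be told apart, and the methods describe the isolated cells as mostly but not wholly CMCs. Input DNA and sh-control samples had no peak list and entered no comparison.

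5-hmC is made from 5-methylcytosine by the TET enzymes, mostly at CpG dinucleotides, and in many tissues it lies over the bodies of transcribed genes. The 2 thyroid hormone receptors and the 2 corticoid receptors are nuclear receptors, transcription factors that bind their hormone and then act on DNA. Dio2 converts thyroxine into the active hormone triiodothyronine inside the cell. In the heart, thyroid hormone and glucocorticoids both rise around birth and take part in the maturation of CMCs, and Thra is the main thyroid hormone receptor there.

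A set of 5 stretches of 240 bases shows what the peaks cover at the members. The 4 listed first are, for each of 4 genes, the stretch free of untranslated exon sequence that lay under peaks of the most lists, and the last is the same for coding sequence of Nr3c2. All are from the RefSeq sequence of GRCm38 (mm10), written 5′ to 3′ on the gene's own strand, with each CpG in capitals.
Thra, intron, chr11:98752896-98753135, plus strand: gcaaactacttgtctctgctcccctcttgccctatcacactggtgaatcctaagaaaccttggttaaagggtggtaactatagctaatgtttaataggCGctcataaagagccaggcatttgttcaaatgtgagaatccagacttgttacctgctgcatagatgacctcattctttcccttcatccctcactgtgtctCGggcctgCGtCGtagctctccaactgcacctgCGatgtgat
Thrb, intron, chr14:17856670-17856909, plus strand: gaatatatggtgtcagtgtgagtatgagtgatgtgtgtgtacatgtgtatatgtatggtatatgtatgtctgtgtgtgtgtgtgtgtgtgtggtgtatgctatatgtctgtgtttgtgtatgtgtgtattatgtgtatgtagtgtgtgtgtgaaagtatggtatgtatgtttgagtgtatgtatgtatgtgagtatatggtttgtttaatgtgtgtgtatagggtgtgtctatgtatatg
Nr3c2, intron, chr8:77051043-77051282, plus strand: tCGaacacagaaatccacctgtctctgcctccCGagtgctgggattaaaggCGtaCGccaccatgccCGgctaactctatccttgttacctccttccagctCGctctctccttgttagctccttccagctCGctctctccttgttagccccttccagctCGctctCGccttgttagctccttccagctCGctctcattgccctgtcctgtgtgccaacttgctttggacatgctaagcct
Dio2, first coding exon (60 bases) and then intron, chr12:90737883-90738122, minus strand: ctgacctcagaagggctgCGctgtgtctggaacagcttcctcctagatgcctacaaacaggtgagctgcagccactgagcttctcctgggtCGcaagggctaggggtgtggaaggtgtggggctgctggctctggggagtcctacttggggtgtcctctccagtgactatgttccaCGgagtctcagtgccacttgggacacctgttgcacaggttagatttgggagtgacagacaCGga
Nr3c2, first coding exon, chr8:76908943-76909182, plus strand: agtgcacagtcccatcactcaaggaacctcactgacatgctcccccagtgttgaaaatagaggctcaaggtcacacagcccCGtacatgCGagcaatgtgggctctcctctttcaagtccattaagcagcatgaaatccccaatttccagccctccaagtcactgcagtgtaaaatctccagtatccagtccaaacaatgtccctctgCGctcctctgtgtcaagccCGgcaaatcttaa

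These stretches differed in the CpG they offer and in the lists that cover them. The Thra stretch held 5 CpG and lay under a peak in all 8 lists. The Nr3c2 intron held 10 CpG and was covered in 7 lists, the exception being TAC replicate 2. The Dio2 stretch held 4 CpG and was covered in the 4 E14.5 and neonatal lists and in none of the others, and the coding stretch of Nr3c2 held 4 and was covered in 5 lists. The Thrb stretch held 0 CpG, although it was covered over most of its length in 6 lists. It consists largely of t and g bases in repeats of tg, and 93.3% of it is soft-masked as repeat in the reference, against 0% of the Thra and Dio2 stretches.

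The TAC lists stood apart from the others. Only 21.0% of the peaks of either TAC list overlapped a peak of the other replicate, whereas at the other points this share lay between 36.8% and 47.4%. At the members it was 16.5% for TAC replicate 1 and 26% for TAC replicate 2, against 34.7% to 61.1% at the other points, and widening the peaks by 500 bp raised it to 27.8% and 44%. TAC replicate 2 also covered the least of the genome, 2.46% of the known bases. The values of Dio2 and Nr3c1 and the pathway counts that rest on TAC are therefore given with either list left out.

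The members spanned most of the range of coverage found over all genes. Thra had a mean of 26.8% over the 8 lists and lay at percentile 98.1 of the genes tested. Nr3c1 followed with 7.63% (percentile 65.0), Nr3c2 with 5.51% (percentile 51.3), Dio2 with 4.11% (percentile 38.8) and Thrb with 2.25% (percentile 18.2). The lowest value of Thra, 15.3%, was above the highest value of any other member, 11.4% in Nr3c1, so its place did not depend on the list. The ranges of the other 4 overlapped one another. The median gene tested had 5.35% covered.

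**Figure D1:**
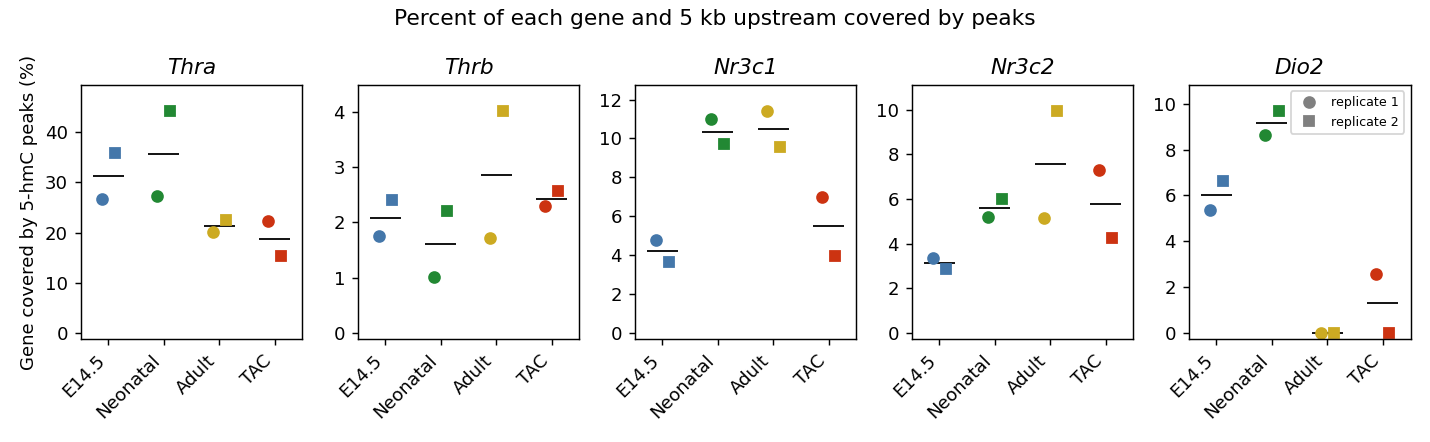
Percent of each gene and its 5 kb upstream covered by 5-hmC peaks (vertical axis, scaled separately for each gene) in the 8 lists, by point; circles are replicate 1, squares replicate 2 and lines the mean of 2. Dio2 is at 0 in both adult lists, and Nr3c1 is between 9.58% and 11.4% in the neonatal and adult lists.

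Dio2 (chr12:90724552-90739038, minus strand) had peaks early and none in adult CMCs. Its coverage was 5.38% and 6.64% at E14.5, 8.63% and 9.67% in neonatal CMCs and 0% in both adult lists. In TAC it was 2.57% in replicate 1 and 0% in replicate 2. All 4 E14.5 and neonatal values were above all 4 adult and TAC values. The share of all genes with this order was not counted. The 4 points differed in an exact permutation test over the 105 divisions of the 8 lists into pairs (one-sided exact p = 0.0286). In 3 divisions the spread between pairs was at least as large. Both adult lists and TAC replicate 2 are at 0%, so these 3 are the observed division and its ties. With these ties the exact p cannot be smaller, and without ties its smallest value is 0.00952. Leaving out TAC replicate 2 removes the ties. Dio2 was the 1 member of 5 to pass, and 8.91% of all genes tested passed the same test. Leaving out TAC replicate 1 gave an exact p of 0.0286, and leaving out TAC replicate 2 gave 0.00952. The call was lost with peaks widened by 500 bp (exact p = 0.0857) and with the number of peaks per 100 kb in place of bases covered (exact p = 0.314).

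The early Dio2 signal lay in 1 region just inside the gene, beside a peak 10.4 kb after the start in E14.5 replicate 2 and one 4.96 kb before it in neonatal replicate 1. A peak ran from 0.55 to 1.59 kb and from 0.53 to 1.32 kb after the start in the E14.5 lists, and from 0.55 to 1.94 kb and from 0.40 to 2.28 kb in the neonatal lists. The 2 lists of a point shared 773 bp at E14.5 and 1387 bp in neonatal CMCs. The first coding exon, 222 bp long, was covered whole in each of these 4 lists and had no covered base in the adult or TAC lists. The single peak of TAC replicate 1 lay further in, from 2.05 to 2.55 kb. In the adult lists the nearest peak to the Dio2 start was 91.5 kb away in replicate 1 and 76.6 kb in replicate 2. Genes with peaks in all 4 E14.5 and neonatal lists and in neither adult list made up 1.79% of those tested, a rule set after the Dio2 values were seen.

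The exact start of Dio2 carried no peak. Its promoter window, the 250 bases before and 50 after the start, held 3 CpG, more than 23.3% of all promoters in the RefSeq table, and no list had a peak in it. The median promoter held 7 CpG. Per 100 bases, the covered parts of Dio2 held between 1.40 and 1.86 CpG, whereas its whole window held 1.04.

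Thra (chr11:98741785-98769006, plus strand), the thyroid hormone receptor with the higher coverage, was covered in every list. The values were 26.6% and 36.0% at E14.5, 27.2% and 44.2% in neonatal CMCs, 20.1% and 22.6% in adult CMCs, and 22.2% and 15.3% in TAC. Both adult values were below all 4 earlier ones, while the E14.5 and neonatal values overlapped. How many of all genes had adult values below all earlier ones was not counted. The spread between replicates was large, with a mean of 35.7% and a standard deviation (SD) of 11.99 percentage points in neonatal CMCs (n = 2), and the exact permutation test over the 4 points gave p = 0.171.

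Its 10 regions included 2 that were present in both replicates at all 4 points, and no other member had such a region. They were centred 11.7 and 23.3 kb after the start. A region at the end of the gene was in 6 lists, all but replicate 2 of adult and of TAC CMCs, and ran past the end of Thra into Nr1d1, the gene of a circadian nuclear receptor on the other strand, which shares 3.34% of the Thra window. Along the gene, coverage averaged over the 8 lists was 70.5% in part 5 of 10 equal parts and 63.2% in part 9 but 4.60% in part 1. The early and adult means stood furthest apart in the front part. In part 4 the mean was 44.9% at E14.5 and 41.1% in neonatal CMCs, against 4.72% in adult and 0.68% in TAC. In part 5 it was 72.6%, 73.1%, 67.5% and 68.8% in the same order.

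A region 4.56 kb into Thra was found in both E14.5 lists and in no other. One centred at 15.2 kb was in both lists of adult and of TAC CMCs and in 1 list each at E14.5 and in neonatal CMCs. The coding exons of Thra were covered to between 20.7% in TAC replicate 2 and 82.9% in adult replicate 1. Replicates of a point differed as much as points did there, with 82.9% and 45.7% in the 2 adult lists.

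Thrb (chr14:17660960-18038088, plus strand), which has 2 annotated starts 320.7 kb apart, was the member with the lowest coverage. It was covered to 1.75% and 2.41% at E14.5, 1.01% and 2.21% in neonatal CMCs, 1.72% and 4.01% in adult CMCs, and 2.30% and 2.56% in TAC. Its replicates overlapped in all 4 comparisons, and p was 0.686 in the exact permutation test. After scaling each list to its genome-wide coverage, both neonatal values lay below both E14.5 and both adult values. The share of all genes that did so after scaling was not counted. The gene held 63 regions, of which 39 were seen in a single list and 54 in both replicates of no point. Bases common to both replicates came to 2319 at E14.5, 1128 for neonatal, 1402 for adult and 203 for TAC CMCs.

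The most recurrent Thrb region was the repeat printed above, found in 7 lists, with 0.0902 CpG per 100 bases over its 1109 bp. The covered bases of Thrb held 0.260 to 0.390 CpG per 100 bases in the E14.5 and neonatal lists and 0.501 to 0.957 in the adult and TAC lists, against 0.553 in the whole window. In the first 4 lists 35.8% to 49.3% of the covered bases were soft-masked repeats and in the last 4 lists 22.1% to 33.8%, against 30.8% of the window. Thrb was the only member of the 5 whose covered bases held less CpG than its window in all 4 E14.5 and neonatal lists. The part of repeats in the Thrb peaks was not tested. Neither start had a peak within 1 kb in any list, and the promoter at the outer start is rich in CpG, with 37 in 300 bases.

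Nr3c1 (chr18:39410545-39519421, minus strand), the receptor for glucocorticoids, had its higher values in the neonatal and adult lists. Coverage was 4.79% and 3.65% at E14.5, 10.97% and 9.72% in neonatal CMCs, 11.4% and 9.58% in adult CMCs, and 7.01% and 3.96% in TAC. The 4 neonatal and adult values lay above the 4 E14.5 and TAC values with no overlap. Scaled to genome-wide coverage this separation was lost, with 7.32% in neonatal replicate 2 and 8.34% in TAC replicate 1. Both scaled TAC values still lay below both scaled adult values. The share of all genes that did either was not counted. Unscaled and without overlap, 29.6% of all genes were higher from E14.5 to neonatal and 32.7% from E14.5 to adult CMCs. From adult to TAC 27% were lower. The exact permutation test over the 4 points gave p = 0.0667, which misses the threshold of 0.05. The exact test gave p = 0.0857 without TAC replicate 1 and p = 0.0381 without TAC replicate 2, and TAC replicate 1 alone, at 7.01%, was still below both adult lists.

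The Nr3c1 regions found in both replicates differed between points. Stretches common to both replicates numbered 9 for neonatal and 11 for adult CMCs, against 2 for E14.5 and 0 for TAC. Genes with common bases in adult CMCs and none in TAC made up 26.3% of those tested. The first coding exon of Nr3c1, 1235 bp long and 51.9% of the coding sequence, encodes the amino-terminal part of the receptor. It was covered to 92.1% and 64.2% in the neonatal lists and to 0% in the other 6. The region that holds it, 2647 bp wide and centred 33.0 kb after the outer start, was found in both neonatal lists only. Coding exons without a peak in both E14.5 lists and with one in both neonatal lists were found for Nr3c1 and Nr3c2 among the members and for 3.64% of the genes tested, a rule set after these values were seen.

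A group of 3 intronic Nr3c1 regions, 43.7, 49.6 and 56.1 kb after the outer start, was in both lists of neonatal and of adult CMCs and in TAC replicate 1, and the first 2 of them also in E14.5 replicate 1. A further 8 regions were in both replicates of adult CMCs and of no other point, and 6 of them were beyond 60 kb. Upstream of the gene, 1 region centred at 4.71 kb before the outer start was in 6 lists. In the 5 kb upstream of Nr3c1, coverage was 28.8% and 23.3% at E14.5, 25.9% and 0% in neonatal CMCs, 2.94% and 16.7% in adult CMCs, and 0% and 15.7% in TAC. Replicates of the last 3 points lay far apart, so no order of the points is read from them. Of its 5 annotated starts, only the outer one had covered bases within 1 kb, 501 bp in each E14.5 list.

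Nr3c2 (chr8:76902330-77245012, plus strand), the receptor for aldosterone that also binds glucocorticoids, held 101 regions, the most of the members, over 342.7 kb. Coverage was 3.35% and 2.87% at E14.5, 5.21% and 5.98% in neonatal CMCs, 5.17% and 9.93% in adult CMCs, and 7.32% and 4.25% in TAC. Both E14.5 values were below the other 6, which overlapped one another. How many of all genes had E14.5 values below all others was not counted. The exact permutation test over the 4 points gave p = 0.305, and the 2 adult lists differed by more than the means of neonatal and adult CMCs did.

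The first coding exon of Nr3c2, 1757 bp long and 59.7% of the coding sequence, also encodes the amino-terminal part of the receptor. It was covered to 0% in both E14.5 lists, 51.6% and 28.5% in the neonatal lists, 0% and 91.2% in the adult lists, and 56.9% and 61.7% in the TAC lists. In adult replicate 1 other exons were covered, and 16.0% of all coding bases lay under peaks. Stretches common to both replicates numbered 5 for E14.5, 15 for neonatal, 17 for adult and 9 for TAC CMCs. No region was in both replicates of all 4 points. The 3 regions in 7 lists were intronic, at 149.2, 176.7 and 312.7 kb. Of the 101 regions, 47 were seen in 1 list. A pair of regions in the Nr3c2 introns, 122.0 and 271.3 kb after the start, were in all 4 E14.5 and neonatal lists. The first had no peak at the later points and the second had 1 peak there, in adult replicate 1.

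**Figure D2:**
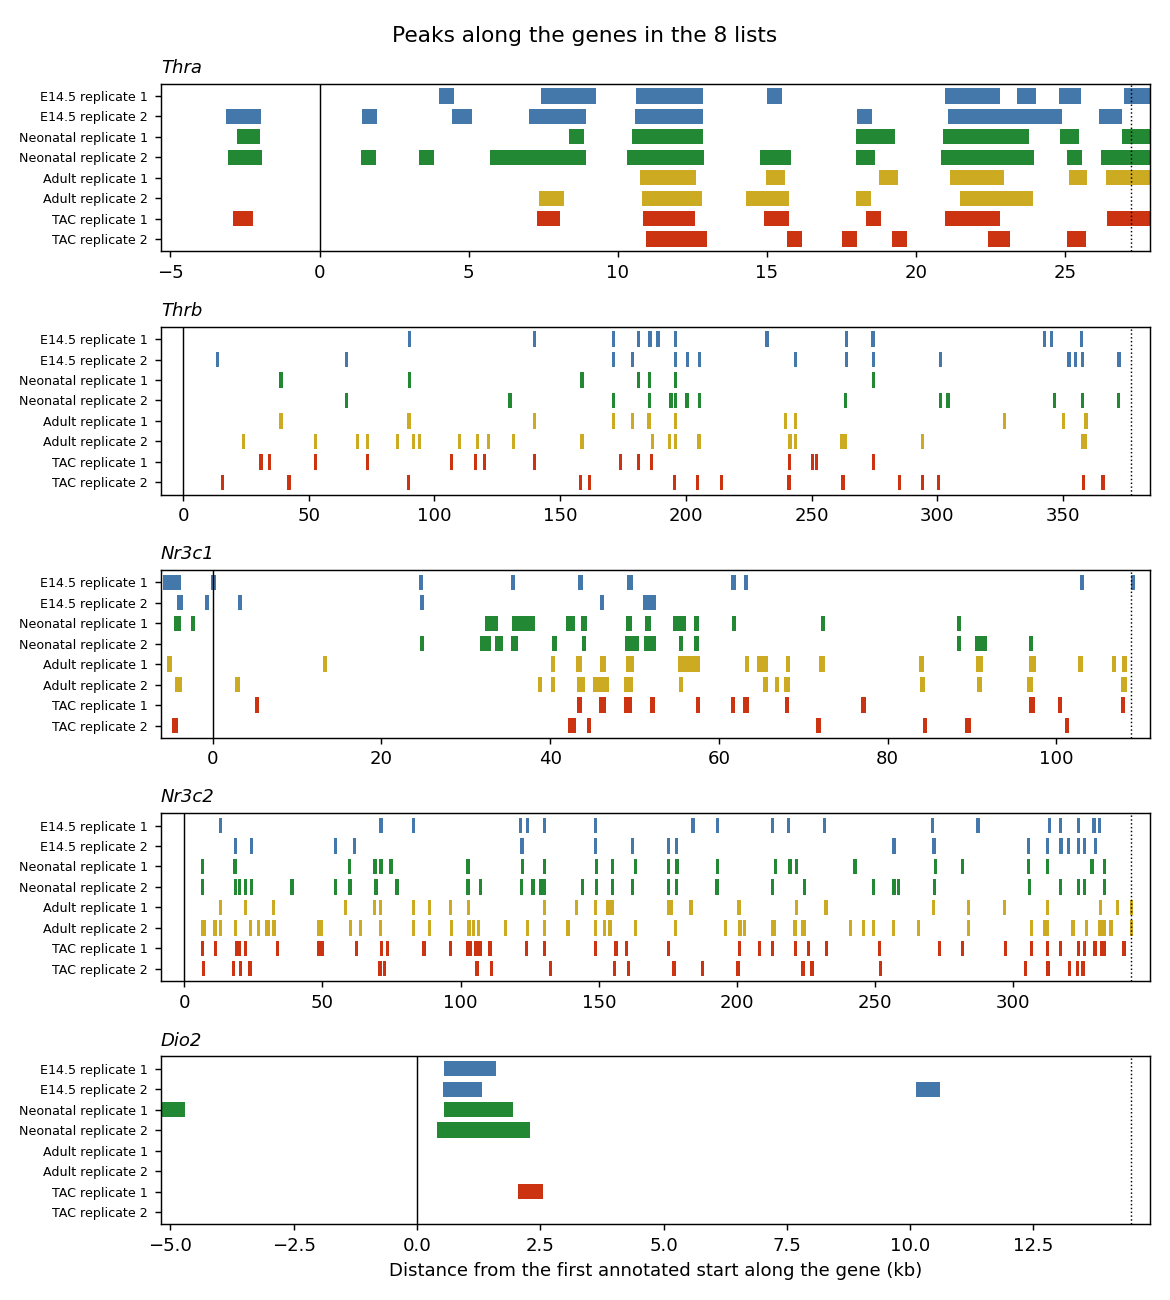
Peaks of each of the 8 lists (rows) along the 5 genes, in kb from the outermost annotated start (solid line) in the direction of transcription, with the dotted line at the end of the gene; bars narrower than 1 part in 300 of the window are widened to be visible. Thra has blocks near 11 to 13 kb in all 8 lists, Dio2 1 block near its start in E14.5 and neonatal lists, and Thrb mostly single peaks.

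Peaks kept away from most starts of the members. Thra, Thrb and Nr3c2 had no peak within 1 kb of any annotated start in any list, which held for 32.3% of the genes tested. The nearest peak to the Nr3c2 start was between 6.03 and 12.8 kb away. Of the 214 regions, 196 were centred in introns, 4 in coding exons, 6 in untranslated exon sequence, 5 upstream and 3 beyond the end of the gene. Introns are also most of the span of each member, 337.0 of 342.7 kb in Nr3c2, so these counts show no preference for introns. By the mean of the 8 lists, coding exons were covered more than introns in each member, from 3.61% against 2.30% in Thrb to 58.1% against 26.1% in Thra. This did not hold in every list. Coding exons of Nr3c1 and Nr3c2 were at 0% in both E14.5 lists, where their introns had peaks. Those of Thrb were at 0.41% against 2.28% of its introns in neonatal replicate 2. The share of all genes with coding exons covered more than introns was not counted, so no trait of the members is read from this.

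**Figure D3:**
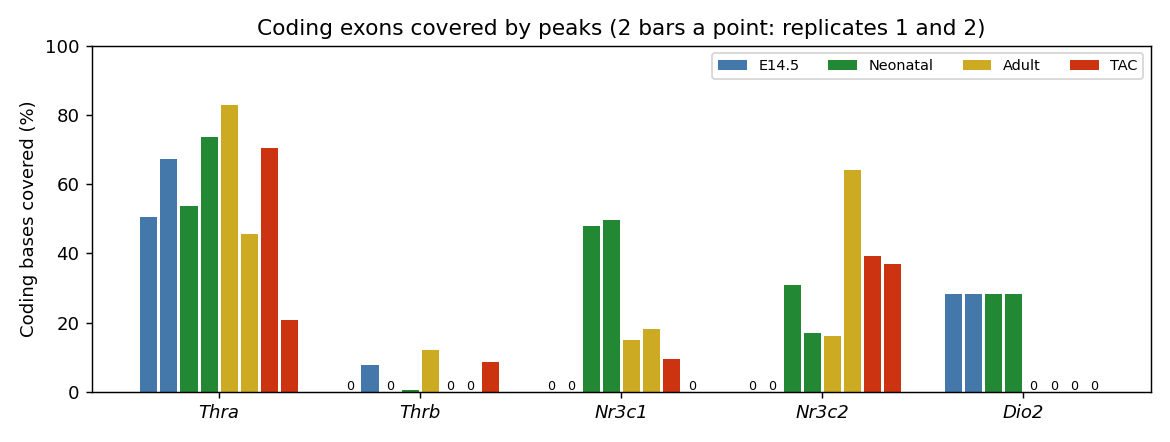
Percent of the coding bases of each gene covered by peaks, 2 bars a point for replicates 1 and 2, with 0 written where no coding base was covered. Nr3c1 and Nr3c2 are at 0 in both E14.5 lists, and Dio2 is at 28.1% in the 4 E14.5 and neonatal lists and at 0 in the others.

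The comparisons between points ask how coverage changed at birth, with maturation and under pressure overload. Differences are given on the log2 scale of the percent covered plus a pseudocount of 1, which understates the change of low values, with the standard error (SE) from limma, fitted over all 13551 genes. At an adjusted p of 0.05 (Benjamini-Hochberg over all genes) limma called 0 members and 0% of the genes in each of the 4 comparisons. At an unadjusted p of 0.05 it gave 984 genes from E14.5 to neonatal, 1188 from neonatal to adult, 964 from adult to TAC and 2426 from E14.5 to adult CMCs. Among the members these numbered 1, 1, 0 and 2. Whether the replicates of 2 points overlap is given below as a description.

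From E14.5 to neonatal CMCs 3 members had both neonatal values above both E14.5 values, Nr3c1, Nr3c2 and Dio2, and none had them below. Of all genes tested 29.6% lay higher without overlap and 6.98% lower. The log2 difference was 1.13 ± 0.41 (SE) for Nr3c1, 0.68 ± 0.47 for Nr3c2 and 0.54 ± 0.65 for Dio2, with limma adjusted p = 0.625, 0.824 and 0.908. The median over all genes was 0.27.

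From neonatal to adult CMCs 2 members were lower without overlap, Thra and Dio2, and none was higher, against 22.3% of all genes lower and 17.3% higher. After scaling to genome-wide coverage Thrb and Nr3c2 were higher without overlap, and Thra and Dio2 were still lower. Nr3c2 then had 4.77% and 4.50% in neonatal against 6.06% and 9.14% in adult CMCs. Scaling moved the median over all genes from -0.07 to 0.18. The shares of all genes above are unscaled. They were not counted after scaling, so the scaled counts of members have no share beside them. Adult CMCs had no Dio2 peak, so no fold is given and the log2 difference depends on the pseudocount. The log2 difference of Dio2 was -3.34 ± 0.65 with a limma unadjusted p of 0.00146 and an adjusted p of 0.208. That of Thra was -0.68 ± 0.38 with an adjusted p of 0.669. Nr3c1 differed by 0.01 ± 0.41.

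From adult to TAC CMCs 1 member, Nr3c1, was lower without overlap and none was higher, against 27% of all genes lower and 6.18% higher. The median over all genes was -0.35, so coverage was lower in TAC for most genes. Scaling to genome-wide coverage moved this median to -0.11, and the medians of the first 2 comparisons to 0.08 and 0.18. The log2 difference of Nr3c1 was -0.86 ± 0.41 with a limma adjusted p of 0.697, -0.61 after scaling, -1.21 without TAC replicate 1 and -0.52 without TAC replicate 2. Dio2 stood at 0.92 ± 0.65, which rested on the 501 bp peak of TAC replicate 1. A peak present in fewer cells and a weaker peak in all cells cannot be told apart in these bulk samples.

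Over the whole span from E14.5 to adult CMCs, Nr3c1 and Nr3c2 were higher and Thra and Dio2 lower without overlap. Of all genes 32.7% were higher and 18.5% lower. The log2 difference was 1.14 ± 0.41 for Nr3c1, 1.002 ± 0.47 for Nr3c2, -0.52 ± 0.38 for Thra and -2.80 ± 0.65 for Dio2, and limma gave adjusted p = 0.233, 0.319, 0.486 and 0.142. This comparison and the previous ones share their lists and do not count as separate evidence.

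Genes that act with the members were taken from 6 lists of 47 genes, of which 41 were tested. limma called none of them at an adjusted p of 0.05 in any comparison. From E14.5 to adult CMCs 22 of the 41 were higher without overlap and 6 lower, beside 32.7% and 18.5% of all genes tested. From adult to TAC 2 were higher and 17 lower, beside 6.18% and 27% of all genes. From E14.5 to neonatal 15 were higher and 2 lower, beside 29.6% and 6.98%, and from neonatal to adult 14 and 12, beside 17.3% and 22.3%. With TAC replicate 2 alone set against both adult lists 30 of the 41 were lower, beside 50.6% of all genes, and with TAC replicate 1 alone 20 were lower, beside 35.8%.

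The list of receptor partners and coregulators, with the retinoid X receptors that pair with thyroid hormone receptors and the coactivators and corepressors that nuclear receptors recruit, had all 11 genes tested. From E14.5 to adult CMCs 9 were higher without overlap and 0 lower, with a median log2 difference of 0.88 against 0.22 over all genes tested. The shares over all genes were 32.7% higher and 18.5% lower. From neonatal to adult 7 were higher and 0 lower, against 17.3% and 22.3% of all genes. From adult to TAC 0 were higher and 7 lower, against 6.18% and 27% of all genes. Of the 11, 10 were lower with TAC replicate 2 alone and 7 were lower and 2 higher with TAC replicate 1 alone. Over all genes 50.6% were lower with TAC replicate 2 alone, and 35.8% were lower and 19.9% higher with TAC replicate 1 alone. Rxrg, a retinoid X receptor, was covered to 14.1% and 9.47% in adult CMCs and to 8.32% and 0.48% in TAC, a log2 difference of -1.76 ± 0.98 with a limma adjusted p of 0.704. It was -3.09 without TAC replicate 1 and -0.43 without TAC replicate 2.

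The corticoid response genes, 6 of 7 tested, had 4 higher and 1 lower from E14.5 to adult CMCs, with a median log2 difference of 1.93. Of all genes tested 32.7% were higher and 18.5% lower, with a median of 0.22. The lower gene was Sgk1, with 6.96% and 7.03% at E14.5 and 2.38% and 3.38% in adult CMCs. Its log2 difference was -1.05 ± 0.39 with a limma adjusted p of 0.246. Tsc22d3 had low values that overlapped. Klf9, a transcription factor gene induced by glucocorticoids and by thyroid hormone, was covered to 1.57% in both E14.5 lists, 11.7% and 18.4% in neonatal CMCs, 40.4% and 35.4% in adult CMCs, and 23.4% and 21.2% in TAC. Its log2 difference from E14.5 to adult was 3.92 ± 0.36 and its limma adjusted p, 0.0826, was the smallest over all genes in that comparison. Klf15, a glucocorticoid-induced regulator of cardiac metabolism, stood at 5.39% and 5.77% at E14.5 and at 28.1% and 21.9% in neonatal CMCs. That was a log2 difference of 1.97 ± 0.61 with a limma adjusted p of 0.566, and its 2 adult lists lay far apart, at 16.7% and 55.3%.

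The thyroid hormone response genes of the heart, 5 of 7 tested, had 3 lower and 2 higher without overlap from neonatal to adult CMCs. Of all genes tested 22.3% were lower and 17.3% higher. Myh6, the alpha myosin heavy chain gene that thyroid hormone induces, was covered to 40.7% and 28.1% at E14.5, 33.6% and 47.0% in neonatal CMCs, 1.69% and 4.70% in adult CMCs, and 8.03% and 7.10% in TAC. Myh7, the beta heavy chain gene that thyroid hormone represses, lies next to it and had 31.3% and 22.3%, 27.1% and 19.97%, 1.73% and 6.92%, and 11.1% and 6.92% at the same points. The log2 difference from neonatal to adult was -3.38 ± 0.47 for Myh6 and -2.38 ± 0.57 for Myh7, with limma adjusted p = 0.125 and 0.329. Atp2a2, the calcium pump of the sarcoplasmic reticulum, had 9.999% and 5.67% at E14.5, 34.2% and 26.6% in neonatal and 5.99% and 8.54% in adult CMCs. From E14.5 to neonatal its log2 difference was 1.86 ± 0.46 with a limma adjusted p of 0.416.

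Corticoid conversion and receptor chaperones, 7 of 7 tested, had 3 higher and 1 lower from E14.5 to adult CMCs. Beside this stood 32.7% and 18.5% of all genes tested. Hsp90aa1, a chaperone that holds the unliganded corticoid receptors, was the lower one, with 14.51% and 12.1% at E14.5 and 4.84% and 0% in adult CMCs, a log2 difference of -2.56 ± 1.06 and a limma adjusted p of 0.275. Hsd11b2, the enzyme that inactivates cortisol and corticosterone, stood at 26.0% and 27.0% in adult CMCs and at 4.89% and 0% in TAC. Its log2 difference was -3.50 ± 0.84 with a limma adjusted p of 0.450, and it was -4.78 without TAC replicate 1 and -2.22 without TAC replicate 2. Of the thyroid hormone transport and conversion list, 4 of 6 tested, 3 were lower from adult to TAC, beside 27% of all genes. With TAC replicate 2 alone 3 were lower, beside 50.6% of all genes, and with TAC replicate 1 alone 4, beside 35.8%. Crym, which encodes a cytosolic protein that binds thyroid hormone, went from 2.43% in both adult lists to 0% in both TAC lists. Its log2 difference was -1.78 ± 0.70 with a limma adjusted p of 0.685. Leaving out either TAC list cannot change this difference, since both are at 0%. Among the 8 of 9 other nuclear receptors tested, 5 were higher and 1 lower from E14.5 to neonatal CMCs, beside 29.6% and 6.98% of all genes. From neonatal to adult CMCs 0 were higher and 4 lower, beside 17.3% and 22.3%.

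**Figure D4:**
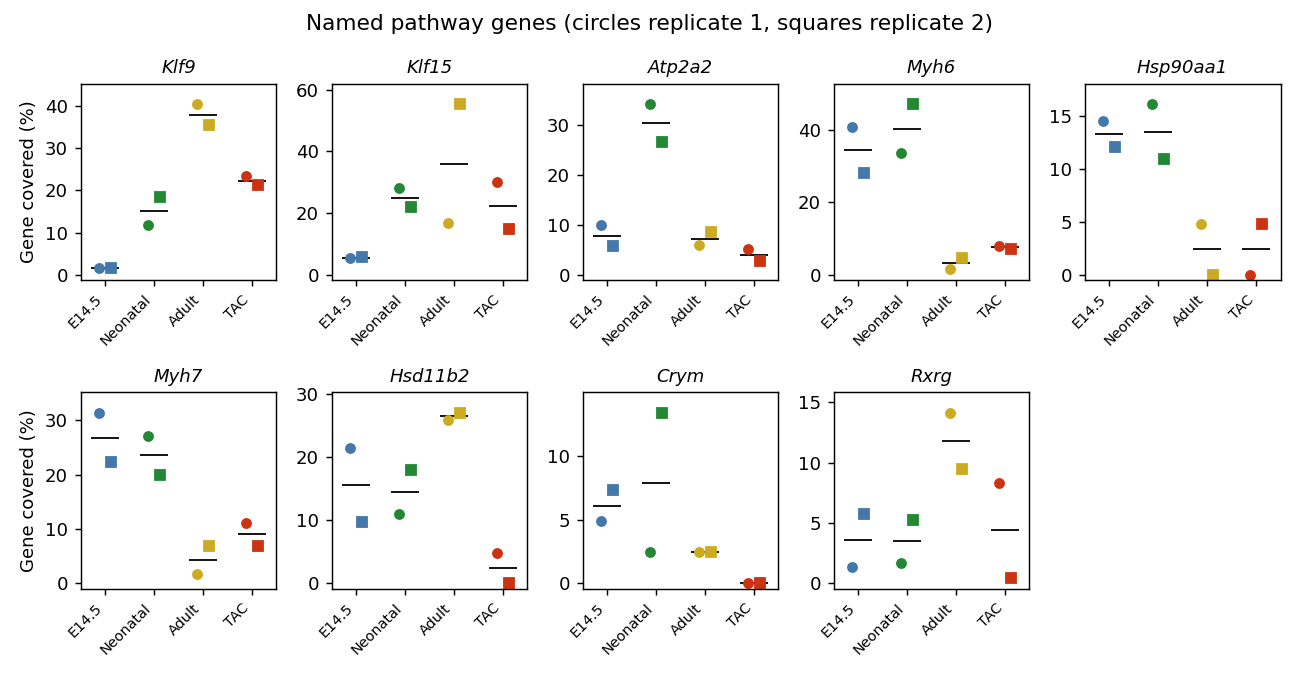
Percent covered (vertical axis) in the 8 lists for the pathway genes with the largest log2 differences without overlap, up to 3 a comparison; circles are replicate 1, squares replicate 2 and lines means. Klf9 is lowest at E14.5 (1.57%) and highest in adult CMCs, and Myh6 and Myh7 are low in adult and TAC lists.

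The cell type labels were set against marker genes of the same profiles, with the limit that 5-hmC is not expression. Over 7 CMC markers the median covered ranged from 7.14% to 38.6% a list, over 6 fibroblast markers from 0.612% to 4.30% and over 5 endothelial markers from 4.24% to 11.4%. Of the fibroblast markers, the collagen genes Col1a1 (2.30% to 12.3%) and Col1a2 (1.22% to 3.67%) were covered in all 8 lists and Vim in 6. Tcf21 was at 0% in all lists but E14.5 replicate 2. Pdgfra (0% to 5.87%) and Postn (0% to 2.72%) had no peak in some lists. The CMC marker Pln was at 0% in all lists but replicate 1 of E14.5 and of neonatal CMCs. The endothelial marker Pecam1 was covered to 9.61% to 25.5%. In the adult lists it had 14.1% and 19.4%, above the CMC marker Myh6 with 1.69% and 4.70%. CMC markers also differed between points, with medians of 33.6% and 38.6% in neonatal and 12.4% and 7.14% in TAC CMCs, and their part in the values of the members was not tested.

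The genes whose coverage over the 8 lists was most like that of each member, by Pearson's r, were Jcad (0.993) and Epha7 (0.983) for Thra, Asb7 (0.948) and Lgi1 (0.947) for Thrb, and Cblb (0.987) and Cxxc1 (0.979) for Nr3c1. For Nr3c2 they were Slc26a6 (0.997) and Cluh (0.994), and for Dio2 Cdcp3 (0.994) and Tbc1d25 (0.993). These are descriptions over 8 lists that differ in total coverage, and the genes were picked as the highest of 13551 genes. Between members, r was 0.85 for Thra and Dio2, 0.62 for Thrb and Nr3c2, and 0.54 for Nr3c1 and Nr3c2, and between -0.51 and 0.06 for the other 7 pairs.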

How the data were processed

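5-hmC was measured by hMeDIP-seq at 4 points with 2 replicates each. Per the labels and the methods, the authors aligned reads to mm10 with BWA 0.7.4-r385, removed duplicates with Picard and low-quality alignments and called enriched regions against input with HOMER, per sample. The deposited peak lists hold positions and a score column that is 1 in every row, so no read count, signal or depth enters and precision is limited by the 2 replicates a point. Per the file headers, tags of the immunoprecipitate were scaled to input in 4 lists and input to the immunoprecipitate in the other 4. The first 4 were both TAC lists and replicate 2 of neonatal and of adult CMCs. Both E14.5 lists were among the other 4, so the scaling went in part with the point. Its part in the values was not tested. The lists held 104215 to 153637 peaks and covered 2.46% to 4.48% of the known bases.

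Gene spans were the union of curated RefSeq transcripts of GRCm38 (mm10), plus 5 kb upstream. Percent covered was tested by exact permutation over all 105 divisions into pairs, and with limma 3.58.1 (R 4.3.3), trended prior variance, on log2(percent + 1) with Benjamini-Hochberg adjustment over 13551 genes. Other steps used Python 3.11.15. The code was tested on simulated data. The methods call the replicates biological but no label names the animals, so p-values measure the spread between these samples. The members and lists were chosen with earlier results of these data known. Named genes were the members and, of each comparison, up to 3 pathway genes with the largest log2 difference without overlap, and the 2 genes most like each member. Sgk1 and Tsc22d3 were named besides, to show the corticoid response genes that were not higher from E14.5 to adult CMCs. Alternatives were another window, peak number, scaling, unit, width, pseudocount, scale, filter, set of lists, a replicate block and leaving out each list.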

Additional observations from a re-analysis of the deposited data

How the results depend on the processing

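In all alternatives limma called 0 members in each of the 4 comparisons, with a replicate block (0 in each) and with each list left out (0 to 0) included. The number of members whose 4 points differed in the exact test was 1 in the reported analysis and 1 to 2 with a list left out. In the exact permutation test it was 2 without TAC replicate 2, where Nr3c1 also passed (exact p = 0.0381), 2 with a replicate block (Nr3c1 p = 0.0286, Dio2 p = 0.0190), 0 when peaks per 100 kb were counted (Dio2 p = 0.314) and 0 when peaks were widened by 500 bp (Dio2 p = 0.0857). The block changed no other call. Same-numbered samples deviated together across genes with r between 0.0159 and 0.245, under 0.1 for 4 of the 6 pairs of points, and no label gives a batch, so the numbers were not taken to pair the samples. Over all alternatives the exact p ranged from 0.00952 to 0.314 for Dio2, 0.0286 to 0.295 for Nr3c1, 0.0952 to 0.600 for Nr3c2, 0.114 to 0.914 for Thra and 0.0571 to 0.933 for Thrb. The 10 log2 differences of members without overlap kept their direction in every alternative, except Dio2 from E14.5 to neonatal CMCs, which was 0 in peaks per 100 kb. Their adjusted p lay between 0.0835 and 1. Taking the longest transcript alone left the mean percent covered of each member the same. Over all genes, limma called none in the reported analysis. Without the filter on length and coverage it called 78 genes from E14.5 to neonatal, 105 from neonatal to adult, 71 from adult to TAC and 140 from E14.5 to adult CMCs. In that last comparison it also called 86 without the 5 kb upstream, 165 in peaks per 100 kb, 20 with widened peaks, 32 with a pseudocount of 0.25 and 2 scaled to genome-wide coverage, and on the square root scale it called 1 from neonatal to adult. The cause of these changes was not tested. Counted with either TAC list alone, an alternative chosen after seeing the data, the pathway genes lower from adult to TAC numbered 20 and 30 in place of 17, one list being easier to place below both adult lists than a pair.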
